A study of Mus musculus with 6 samples.

Results

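The cytosolic ribosomal proteins were taken as all genes of the deposited expression table whose symbol begins with Rpl or Rps followed by a number, together with the stalk genes Rplp0, Rplp1 and Rplp2 and the gene Rpsa, leaving out the ribosomal protein S6 kinases and rows named as pseudogene copies. This name rule gave 85 of 11175 listed genes. By the mouse annotation 80 of the 85 were protein-coding, with 31 genes of the small subunit, 43 of the large subunit, 3 of the stalk and 3 paralogues (Rpl22l1, Rpl7l1 and Rps27l), and 5 were annotated pseudogenes (Rps3a2, Rps3a3, Rpl6l, Rpl32l and Rps4l). The genes came from RNA-seq of CD8+ T cells, the lymphocytes that kill infected or malignant cells, from the spleen of wild-type mice. In culture these had received 48 h of stimulation with antibodies to CD3, which transmits the signal of the T cell receptor, and to CD28, its costimulatory partner. The control group, 3 of the 6 libraries, was stimulated without the compound, and the other 3 libraries, the DOPAC group, were stimulated with it. DOPAC is 3,4-dihydroxyphenylacetic acid, a breakdown product of dopamine. Its dose, the age and strain of the mice, and whether replicates were separate animals or cultures are not given in the labels, so the spread that the p-values use may be technical.

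A ribosome is built from a small subunit, which reads the mRNA, and a large subunit, which joins amino acids, and each subunit holds one copy of most of its proteins. The stalk of the large subunit, made of the P proteins, recruits the translation factors that hydrolyse GTP. Ribosomal protein mRNAs begin with a run of pyrimidines, the 5′ terminal oligopyrimidine (TOP) tract, through which the kinase complex mTORC1 and the RNA-binding protein LARP1 control their translation. Activated T cells enlarge and make many ribosomes before they divide.

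Sequences around the annotated start of transcription are given here for 8 genes, because the TOP tract is the feature that ribosomal protein mRNAs share and because these genes stand at both ends of the main spread in the data. RefSeq promoter windows on GRCm38.p6 were found for 61 of the 85 members, with 72 entries in all. The choice was made among the 51 protein-coding members with a single entry that were considered for printing, not among all members. The first 4 lines show Rps28, Rps27, Rpl38 and Rpl39, which had the largest excess in control replicate 1 within those 51. The last 4 show Rpl4, Rpl7l1, Rpl5 and Rpl6, which had the smallest within them. Rps29 had a larger excess than Rpl39 but was not among the 51. Rpl3, Rpl17 and Rpl7 had a smaller one than Rpl7l1 and were not among the 51 either. Each sequence runs 5′ to 3′ on the sense strand from 40 bases before the start to 15 bases from it, and capitals mark the longest run of at least 5 pyrimidines that reaches into the last 25 bases.
Rps28: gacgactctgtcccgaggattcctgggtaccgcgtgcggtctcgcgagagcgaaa
Rps27: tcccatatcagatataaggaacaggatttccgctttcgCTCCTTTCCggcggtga
Rpl38: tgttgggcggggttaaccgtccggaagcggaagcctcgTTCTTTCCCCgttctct
Rpl39: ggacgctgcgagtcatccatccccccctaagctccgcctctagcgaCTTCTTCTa
Rpl4: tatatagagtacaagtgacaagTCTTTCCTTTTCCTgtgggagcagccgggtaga
Rpl7l1: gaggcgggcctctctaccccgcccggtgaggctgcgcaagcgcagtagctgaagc
Rpl5: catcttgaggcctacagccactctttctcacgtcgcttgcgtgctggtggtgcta
Rpl6: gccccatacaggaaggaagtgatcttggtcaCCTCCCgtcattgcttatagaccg
These windows lie at chr17:33824548-33824602 (minus strand) for Rps28, chr3:90213634-90213688 (minus) for Rps27, chr11:114668540-114668594 (plus) for Rpl38 and chrX:37085208-37085262 (minus) for Rpl39. Those of the second set lie at chr9:64173347-64173401 (plus) for Rpl4, chr17:46782642-46782696 (minus) for Rpl7l1, chr5:107900488-107900542 (plus) for Rpl5 and chr5:121204461-121204515 (plus) for Rpl6. Marked runs were found in 3 genes of the first set and in 2 of the second, so both sets held genes with and without a marked run. The runs of Rps27 and Rpl38 spanned the annotated start. That of Rpl39 began after it, and those of Rpl4 and Rpl6 ended before it. Over all entries, a run of at least 8 pyrimidines between 10 bases before and 15 bases after the start was found in 33.3% of the 72 member entries and in 9.49% of the 32851 entries of the table. The letters CCGGAAG, searched on both strands of the whole window of 300 bases, were found in 36.1% of member entries and in 8.86% of all entries. The letters CTTTCC, searched in the same way, were found in 48.6% and 26.6%, and can lie within a pyrimidine run. These are matches of letters, not measured sites.

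Expression was deposited as FPKM, fragments scaled to transcript length and to the total of the library, so values can be compared between genes per length. Read counts cannot be had from them, so sequencing depth is unknown and counting intervals are not given. The FPKM of all listed genes summed to between 283818 and 316035 per library. All 10 CD8 T cell markers examined, among them Cd3e and Cd8a, were listed, with a summed level of 1102 to 1154 FPKM in the controls and 1036 to 1147 with DOPAC. One library stood apart from the other 5. In control replicate 1 the median gene lay 0.27 below the mean of the other 5 libraries on the log2(FPKM + 1) scale, and 58.6% of all tested genes had their lowest value there. Results that rest on that library are given with and without it.

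The levels of the ribosomal protein genes spanned a wide range, and their order was nearly the same in 5 of the 6 libraries. Ordered by mean log2(FPKM + 1) over the 6 libraries, the highest level belonged to Rplp0, the central protein of the stalk, with 2115, 1636 and 1795 FPKM in control replicates 1 to 3 and 1859, 1817 and 1798 FPKM in the DOPAC replicates. It was followed by Rpl4, a large-subunit protein that lines the exit tunnel, and by Rps3a1, Rpsa, Rplp1 and Rps2. The lowest values belonged to annotated pseudogenes, with Rpl32l listed at 9.35, 1.54 and 1.29 FPKM in the controls and 1.43, 1.02 and 0.533 FPKM with DOPAC. Rps4l, Rps3a3 and Rps3a2 came next above it in that order. By mean FPKM Rplp1 (1129 FPKM) lay above Rpsa (1021 FPKM), and Rpl32l (2.53 FPKM) lay above Rps4l (1.98 FPKM). Among the protein-coding members the range of means ran from 22.8 FPKM for Rpl22l1 to 1837 FPKM for Rplp0. The median member stood at 210 FPKM, beside 7.67 FPKM for all tested genes. Across the 85 members, Spearman's rho between the levels in any pair of the 5 libraries other than control replicate 1 was 0.970 to 0.997, and between control replicate 1 and each of the others it was 0.864 to 0.877. These correlations are across genes, which are not independent replicates, and are given as a description.

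**Figure D1:**
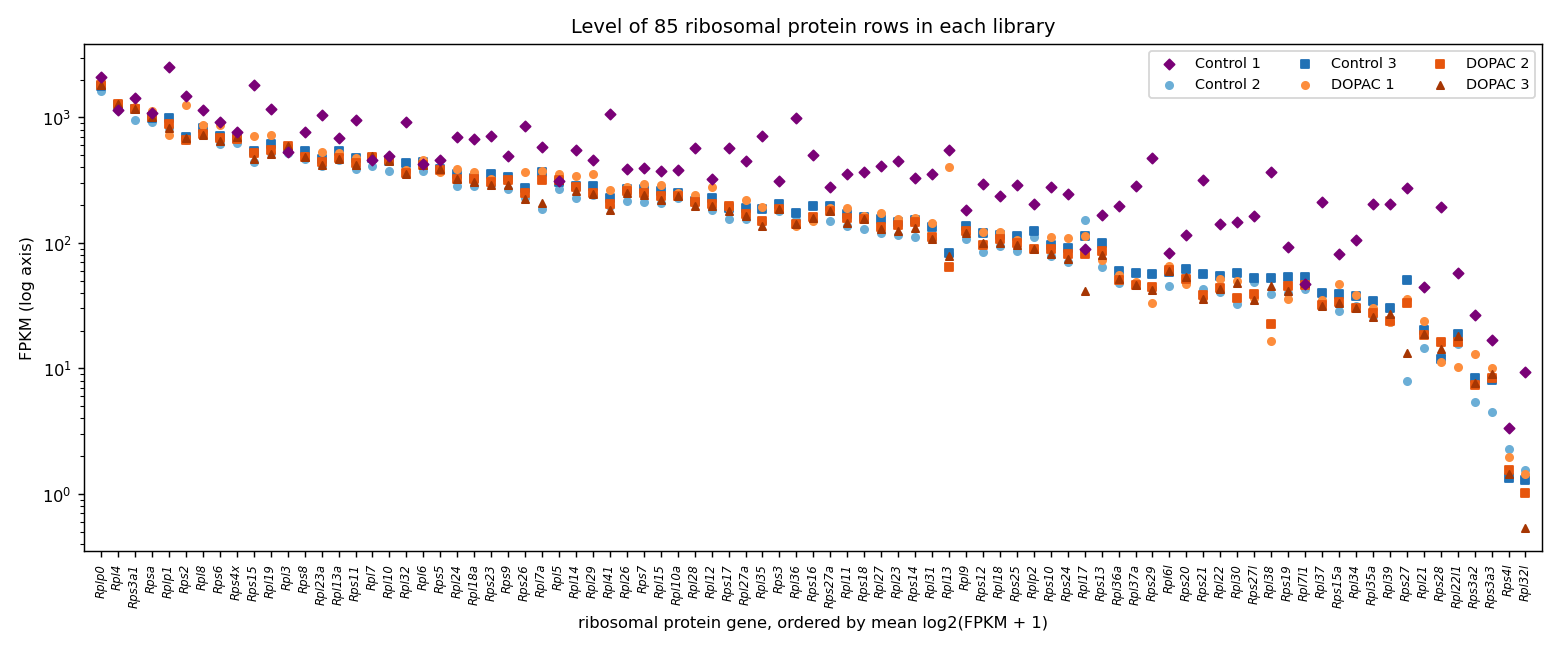
FPKM on a log axis of each of the 85 ribosomal protein genes in each of the 6 libraries, ordered by mean log2(FPKM + 1), with one point per library. Control replicate 1 (diamonds) was the highest library for 77 of the 85 genes, while the other 5 libraries lay close together for most.

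Control replicate 1 held the highest of the 6 values in 77 of the 85 members (90.6%), against 20.9% of all tested genes. Its value was over 2 times the mean of the other 5 libraries in 52 members (61.2%), against 7.40% of all tested genes. The median departure of this library from the mean of the other 5 was 1.15 on the log2(FPKM + 1) scale for the members and -0.27 for all tested genes, so the members stood above the other libraries there while most genes stood below. The 8 members whose highest value lay in another library were Rpl3, Rpl4, Rpl5, Rpl6, Rpl7, Rpl7l1, Rpl17 and Rpsa.

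The excess was largest for the members with the shortest coding sequences. Rps28, a small-subunit protein of 69 codons, was at 194, 12.7 and 11.9 FPKM in the controls and 11.2, 16.3 and 14.4 FPKM with DOPAC, so that control replicate 1 stood at 14.6 times the mean of the other 5 libraries. Rps29, of 56 codons, was at 478, 43.8 and 56.6 FPKM in the controls and 33.0, 44.6 and 42.4 FPKM with DOPAC. Rpl39, of 51 codons, was at 203, 23.3 and 30.3 FPKM and at 23.2, 23.7 and 27.1 FPKM in the same order. In all 3 genes a single library was high, and the groups overlapped among the other 5 libraries. Rpl41, which encodes the shortest member with 25 codons, was at 1067, 197 and 229 FPKM in the controls and 266, 203 and 183 FPKM with DOPAC, a ratio of 4.95 for control replicate 1. At the other end, Rpl4, with 419 codons, was at 1147, 1148 and 1245 FPKM in the controls and 1297, 1283 and 1271 FPKM with DOPAC, and control replicate 1 lay beside control replicate 2. It was the 1 member with its lowest value in control replicate 1.

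Over the 80 protein-coding members, Spearman's rho between the number of codons and the departure of control replicate 1 was -0.87. The median departure was 2.92 for the 10 members of up to 100 codons, 1.56 for the 28 of over 100 and up to 150 codons, 1.07 for the 19 of over 150 and up to 200 codons and 0.34 for the 23 longer ones. The 9277 other protein-coding genes tested showed the same order at lower values, with medians of 0.78, 0.46, 0.12 and -0.31 over the same classes (the last one up to 1000 codons) and a rho of -0.63. In each class the median of the members thus lay above that of the other genes, a difference given without a test. With transcript GC content, the departure of control replicate 1 had a rho of 0.07 for members and 0.43 for the other genes. With transcript length the rho was -0.61 and -0.70 in the same order. In the other 5 libraries the members' rho with codons was positive, from 0.35 in control replicate 3 to 0.77 in DOPAC replicate 2. For the other genes it was -0.13 in DOPAC replicate 1 and positive, from 0.41 to 0.61, elsewhere among these 5. Each departure is taken against a mean that includes control replicate 1, so these values are not independent of it.

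**Figure D2:**
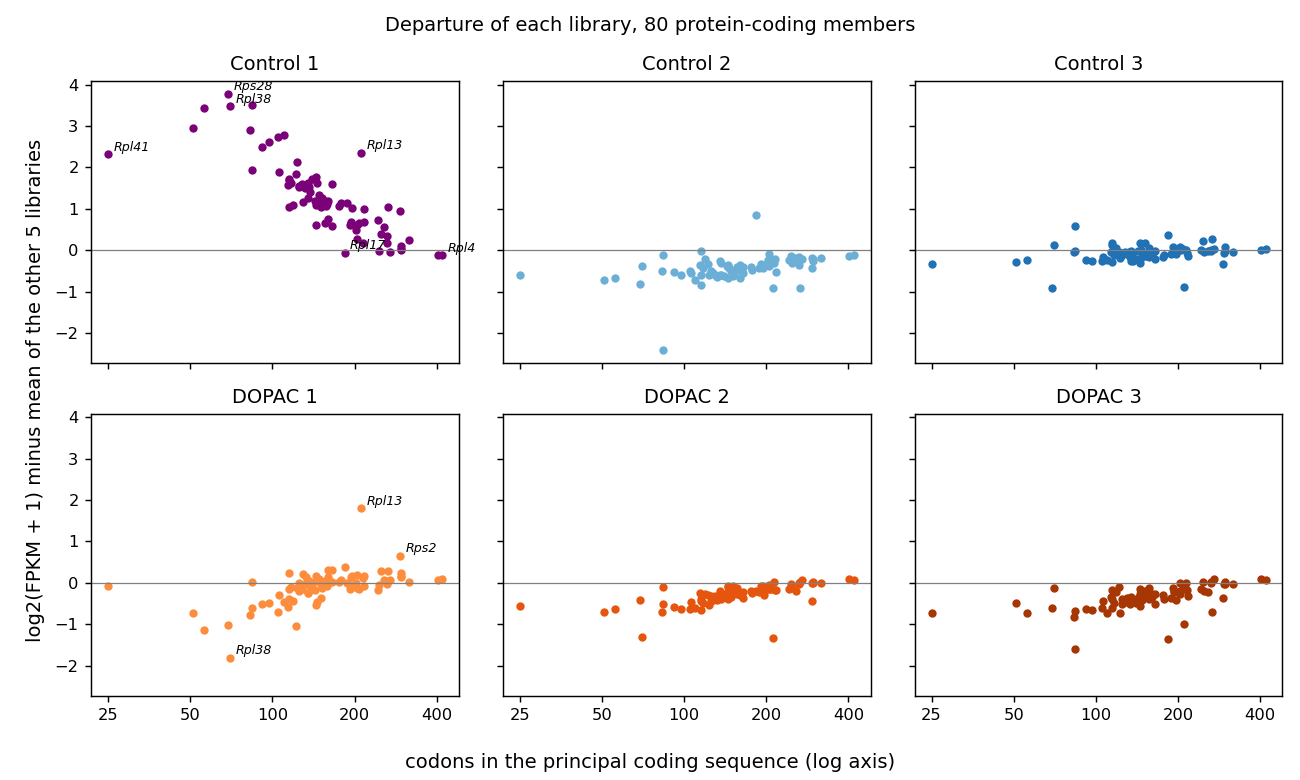
For the 80 protein-coding members, log2(FPKM + 1) in each library minus the mean of the other 5 libraries, against the number of codons on a log axis, with one panel per library and one point per gene. In control replicate 1 the points run from 3.78 (Rps28) down to -0.12 (Rpl4) with increasing length, and in DOPAC replicate 1 the genes Rpl13 and Rps2 lie above the rest.

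Together the 85 members took 14.0% of the summed FPKM in control replicate 1, 7.21% in control replicate 2 and 8.23% in control replicate 3. With DOPAC they took 8.09%, 7.62% and 7.46%. The mean was 9.82% ± 3.68 (SD, n = 3) in the controls and 7.73% ± 0.325 (SD, n = 3) with DOPAC, and 7.72% in the 2 controls other than replicate 1. The difference of the group means, -2.09 percentage points, was 0.0063 points without that library. Members of up to 100 codons made up 8.16% of the FPKM of the 85 members in control replicate 1 and 2.12% to 2.65% in the other 5 libraries. Members of over 200 codons made up 39.0% there and 55.6% to 58.8% elsewhere. The summed level of the small-subunit genes was set against that of the large-subunit and stalk genes together. It stood at 0.667, 0.642 and 0.652 of it in control replicates 1 to 3. In the DOPAC replicates it stood at 0.680, 0.659 and 0.667, and these ranges overlapped. Without control replicate 1 they did not, with 0.642 to 0.652 in the controls and 0.659 to 0.680 with DOPAC. That difference was not tested. In bulk RNA, fewer cells of a type and less RNA per cell cannot be told apart, and a share of FPKM is not an amount per cell.

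**Figure D3:**
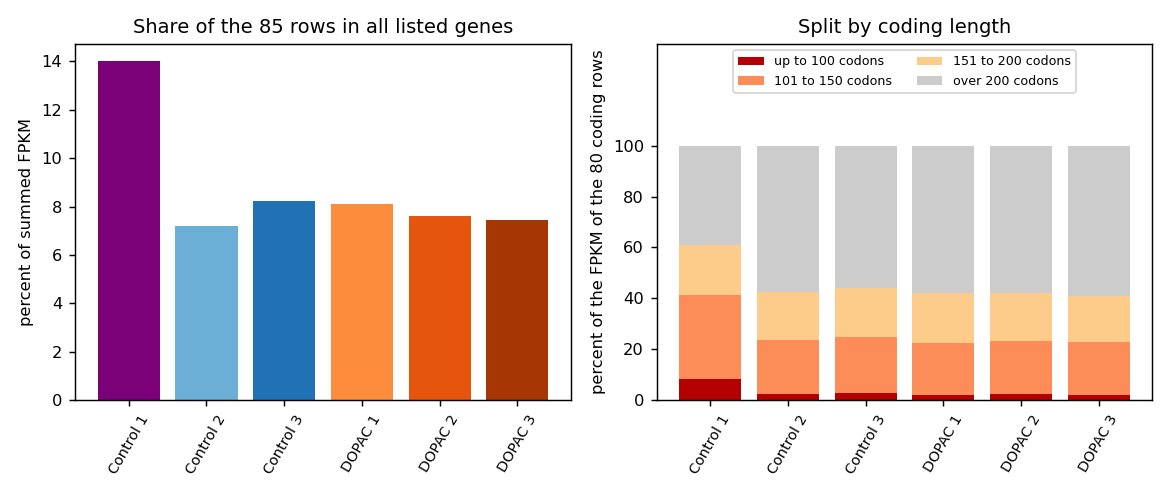
Left, percent of the summed FPKM of all listed genes taken by the 85 members in each library, with bars from 0. Right, the FPKM of the 80 protein-coding members split by coding length. Control replicate 1 stands at 14.0% on the left, against 7.21% to 8.23% in the others, and holds the largest part from members of up to 100 codons on the right.

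The main comparison asked how DOPAC altered expression in stimulated CD8+ T cells. No ribosomal protein gene passed the threshold. limma on log2(FPKM + 1) called 0 of 85 members at an adjusted p of 0.05, and 0 of 10887 tested genes (0%). At an unadjusted p under 0.05 it gave 1 member, Rplp2, which is 1.18% of them, beside 4.19% of all tested genes. The log2 fold change, DOPAC against control, was negative for 75 members and positive for 10, whereas 62.1% of all tested genes were positive. The median was -0.34 for the members and 0.07 for all tested genes.

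The split of signs was another one without control replicate 1. Of the 85 members 54 were then positive and 31 negative, beside 47.3% of all tested genes that were positive, and the medians were 0.06 for the members and -0.01 for all tested genes. With the replicate number as a block in addition, 33 members were positive and 52 negative, beside 45.4% of all tested genes that were positive, with a median of -0.03, so the majority was negative again. Neither sign therefore held across these fits. Without control replicate 1 limma called 0 members and 2 of 10887 genes (0.0184%). At an unadjusted p under 0.05 there were 4 members (Rplp2, Rps27l, Rpl36 and Rps21), all lower with DOPAC, beside 14.5% of all tested genes in either direction and 8.89% on the lower side. The share of members was below that background. Most members were steady over the 5 libraries, with a range under 1.5-fold in 63 of 85 (74.1%), beside 77.2% of all tested genes. The median fold change by coding length, from the shortest class to the longest, was -1.04, -0.51, -0.29 and -0.03 with all libraries and -0.15, -0.02, 0.09 and 0.10 without control replicate 1. Leaving out control replicate 2 instead, the library with the lowest value for 55 members, gave 12 members with an unadjusted p under 0.05, all lower, beside 5.99% of all tested genes in either direction and 2.41% on the lower side. It gave 0 called members, 0% of all genes called and a median of -0.62.

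**Figure D4:**
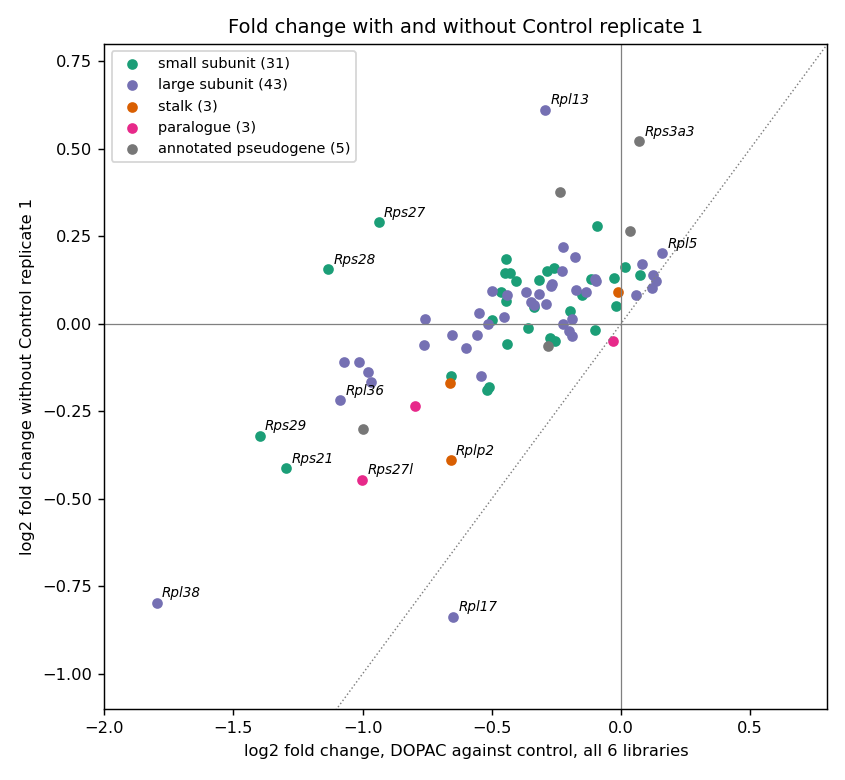
Log2 fold change of each of the 85 members, DOPAC against control, from all 6 libraries (horizontal axis) and without control replicate 1 (vertical axis), coloured by role, with the line of equality dotted. With all libraries 75 genes lie left of 0, and without control replicate 1 31 lie below 0, among them Rplp2, Rps27l and Rps21.

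Groups did not overlap in 9 members, and in each direction their share was near or below that of all tested genes. The 5 whose DOPAC values all lay below every control were Rplp2, Rps27l, Rps21, Rps20 and Rpl36, beside 4.80% of all tested genes in that direction. The 4 whose DOPAC values all lay above every control were Rpl3, Rpl4, Rpl5 and Rpl7, beside 12.4% of all tested genes. As shares of the members these were 5.88% and 4.71%. Without control replicate 1 the same 5 lay below (background 21.5%) and 10 lay above (background 15.3%), the further 6 being Rplp0, Rps3a1, Rpsa, Rpl10, Rpl6l and Rps3a3.

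Of the stalk proteins, Rplp2 (ENSMUSG00000025508, chr7:141447370-141451585, GRCm38), which pairs with Rplp1 on the stalk, was at 206, 110 and 125 FPKM in the controls and 89.1, 89.4 and 89.2 FPKM with DOPAC. All 3 DOPAC values lay below the lowest control and close to each other. Its log2 fold change was -0.66 (95% interval -1.22 to -0.10), with an unadjusted p of 0.0270 and an adjusted p of 0.801 in limma. Without control replicate 1 it was -0.39 (-0.58 to -0.21), with an unadjusted p of 0.0022 and an adjusted p of 0.295. Rplp1 was at 2522, 830 and 993 FPKM in the controls and 722, 878 and 827 FPKM with DOPAC, and the groups overlapped, since DOPAC replicate 2 lay above control replicate 2. Its fold change was -0.66 (-1.61 to 0.29) and -0.17 (-0.47 to 0.13) without control replicate 1. For Rplp0, whose values are given above, it was -0.01 and 0.09.

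Among the small-subunit genes 29 of 31 had a negative fold change with all libraries and 10 of 31 without control replicate 1, and 0 passed the threshold in either fit. Rps21 (ENSMUSG00000039001, chr2:180257377-180258445), a small protein of the subunit's solvent side, was at 314, 43.0 and 56.4 FPKM in the controls and 36.6, 38.3 and 35.5 FPKM with DOPAC. The DOPAC values were tight and lay just below the lowest control. Its log2 fold change was -1.29 (-2.95 to 0.36), and -0.41 (-0.71 to -0.11) without control replicate 1, where limma gave an unadjusted p of 0.0148 and an adjusted p of 0.295. Rps20 was at 116, 53.4 and 62.3 FPKM in the controls and 46.6, 51.9 and 53.1 FPKM with DOPAC, where the highest DOPAC value and the lowest control nearly touched, and its fold change was -0.52 and then -0.19 without control replicate 1. Rps6, the target of the S6 kinases, was at 921, 614 and 715 FPKM in the controls and 863, 680 and 652 FPKM with DOPAC, with overlapping groups and fold changes of -0.03 and 0.13.

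Other small-subunit genes named for their roles also had overlapping groups. Rpsa, also known as the laminin receptor, was at 1088, 912 and 985 FPKM in the controls and 1125, 1014 and 1001 FPKM with DOPAC, so that only control replicate 1 reached into the DOPAC range. Rps26, which contacts the mRNA upstream of the start codon, was at 856, 226 and 272 FPKM and then at 367, 250 and 225 FPKM. Rps25, needed for initiation on some viral mRNAs, was at 288, 86.8 and 114 FPKM and then at 106, 98.99 and 95.4 FPKM. Both genes had 1 high control and otherwise mixed values. Rps27a, made as a fusion with ubiquitin, and Rps4x, from the X chromosome, had fold changes of -0.15 and -0.02 with all libraries and 0.08 and 0.05 without control replicate 1.

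Among the large-subunit genes 37 of 43 had a negative fold change with all libraries and 14 of 43 without control replicate 1, and 0 passed the threshold in either fit. Rpl36 (ENSMUSG00000057863, chr17:56613416-56614243) was at 992, 152 and 174 FPKM in the controls and 135, 141 and 142 FPKM with DOPAC. The DOPAC values lay just below the lowest control, and control replicate 1 lay far above all others. Its log2 fold change was -1.09 (-2.70 to 0.53), and -0.22 (-0.42 to -0.02) without control replicate 1, with an unadjusted p of 0.0389 and an adjusted p of 0.328 in limma. Rpl11, which together with Rpl5 carries the 5S ribosomal RNA and can bind the p53 regulator Mdm2, was at 354, 137 and 171 FPKM in the controls and 190, 157 and 144 FPKM with DOPAC. Its groups overlapped, and its fold change was -0.32 and then 0.09. Rpl10a had fold changes of -0.23 and 0.00.

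The 8 protein-coding genes with positive fold changes with all libraries all had over 200 codons. Rpl5 was at 314, 267 and 307 FPKM in the controls and 357, 317 and 316 FPKM with DOPAC, a log2 fold change of 0.16 (-0.13 to 0.45). Rpl3, a protein near the peptidyl transferase centre, was at 525, 521 and 561 FPKM in the controls and 584, 594 and 590 FPKM with DOPAC, a fold change of 0.14 (-0.10 to 0.38). Rpl7 was at 460, 414 and 479 FPKM and then at 488, 487 and 497 FPKM, a fold change of 0.13 (-0.14 to 0.39). In these 3 genes the lowest DOPAC value lay only slightly above the highest control. For Rpl4 the fold change was 0.12 (-0.12 to 0.36), and without control replicate 1 these 4 genes stood between 0.10 and 0.20. Rpl10, which joins the large subunit late in its maturation, was at 496, 376 and 451 FPKM in the controls and 484, 455 and 451 FPKM with DOPAC, with a fold change of 0.08 and then 0.17. None of these intervals excluded 0, with or without control replicate 1.

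Many ribosomal protein genes have processed pseudogene copies that are nearly identical in sequence, between which reads can be split. The table listed 105 rows named as copies of 47 of the members, and 94 of the 105 had their highest value in control replicate 1. Of the summed FPKM, the copies together took 2.49%, 1.13% and 1.27% in control replicates 1 to 3 and 1.35%, 1.19% and 1.22% in the DOPAC replicates. Values of single rows among these 47 genes are therefore uncertain, and each member was also summed with its named copies, an alternative chosen after the data had been seen. Of the 7 members whose values ranged over more than 2-fold across the 5 libraries without control replicate 1 (8.24%, beside 8.11% of all tested genes), Rps27, Rpl38 and Rpl17 came under 2-fold when summed, while Rpl21 went the other way, from 1.64-fold to 2.02-fold. Over the 47 members with copies the range was narrower for the sum in 24 and wider in 23.

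Rps27, a zinc-finger protein of the small subunit, was at 275, 7.95 and 50.2 FPKM in the controls and 35.8, 33.2 and 13.3 FPKM with DOPAC. Its retrotransposed copy Rps27rt, on chromosome 9, was at 182, 90.1 and 9.71 FPKM in the controls and 41.6, 32.2 and 86.0 FPKM with DOPAC. Leaving control replicate 1 aside, the Rps27 row was lowest in control replicate 2 and DOPAC replicate 3, where the copy was highest. The range over the 5 libraries was 6.31-fold for the row and 1.66-fold for the sum. Rpl38, a large-subunit protein known for its part in the translation of Hox mRNAs, was at 370, 39.0 and 52.6 FPKM in the controls and 16.5, 22.5 and 45.1 FPKM with DOPAC. It had the most negative fold change of the members, -1.80 (-3.81 to 0.22), and -0.80 (-1.78 to 0.19) without control replicate 1. Its copy Rpl38-ps2 was at 97.0, 13.7 and 17.4 FPKM in the controls and 58.3, 45.9 and 9.64 FPKM with DOPAC. The sum of the 2 rows was 467, 52.7 and 70.0 FPKM and then 74.7, 68.4 and 54.7 FPKM, with fold changes of -0.87 and, without control replicate 1, 0.10. The lower level of Rpl38 with DOPAC in those 5 libraries was therefore present in the gene's own row and not in its sum with the copy.

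Rpl17, which lines the exit tunnel of the large subunit together with Rpl4, did not have the excess of the members in control replicate 1. It was at 88.7, 151 and 114 FPKM in the controls and 114, 81.5 and 41.5 FPKM with DOPAC. Its 5 named copies held most of the signal, led by Rpl17-ps10 on chromosome 7 with 506, 92.7 and 321 FPKM in the controls and 290, 262 and 312 FPKM with DOPAC. The sum over Rpl17 and its copies was 1231, 482 and 761 FPKM in the controls and 892, 729 and 723 FPKM with DOPAC. The fold change was -0.65 for the row and 0.02 for the sum, and without control replicate 1 it was -0.84 and 0.36. The 2 measures of this gene thus differed in sign. For Rpl7a, with 5 copies, summing brought the range over the 5 libraries from 1.99-fold to 1.31-fold.

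**Figure D5:**
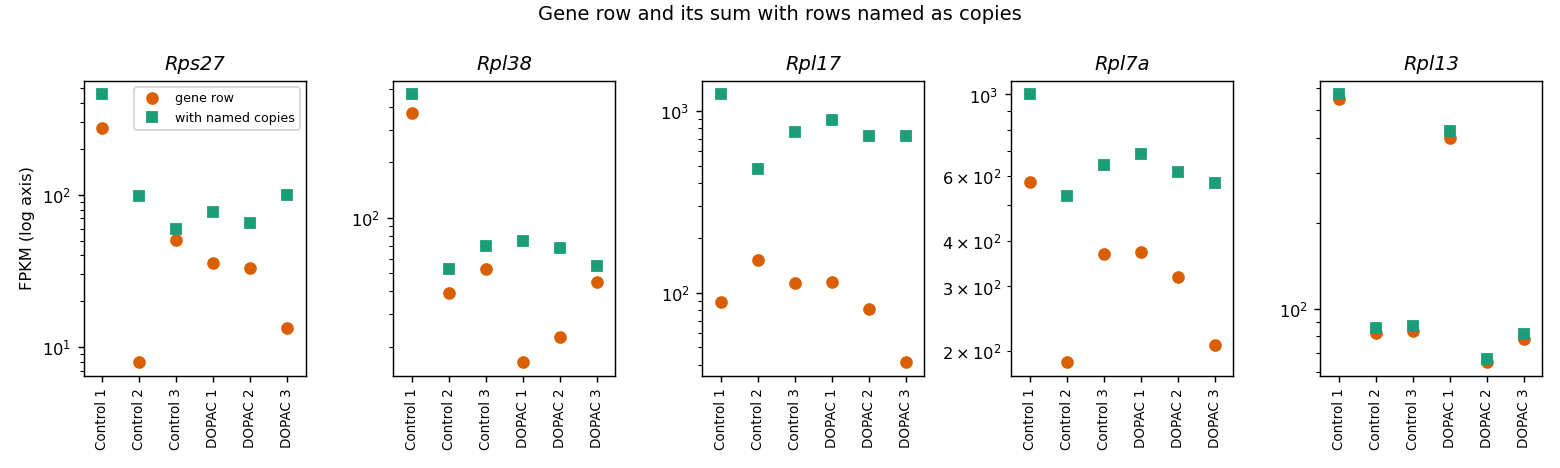
FPKM on a log axis of the gene's own row (circles) and of its sum with rows named as its copies (squares) in each library, for Rps27, Rpl38, Rpl17, Rpl7a and Rpl13. Summing evens out the 5 libraries other than control replicate 1 for Rps27, Rpl38 and Rpl7a, and leaves Rpl13 high in both control replicate 1 and DOPAC replicate 1.

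Control replicate 1 and DOPAC replicate 1 were both high in many members. Both lay above the other 4 libraries in 41 of the 85 members (48.2%), against 12.2% of all tested genes. Part of this lies in control replicate 1 itself, which was highest in 90.6% of members and 20.9% of all tested genes. Without that library, DOPAC replicate 1 was the highest of 5 in 44 members (51.8%), against 28.3% of all tested genes. The clearest case of both lying high was Rpl13, a large-subunit protein of 211 codons. It was at 548, 82.0 and 83.2 FPKM in the controls and 399, 64.8 and 78.1 FPKM with DOPAC. The first replicate of each group stood far above the other 4 libraries of this gene. Rps2, which contacts the mRNA entry channel, was at 1475, 663 and 701 FPKM in the controls and 1248, 663 and 686 FPKM with DOPAC, again high in the first replicate of both groups. The range of Rpl13 over the 5 libraries was 6.16-fold for its row and 6.37-fold for its sum with its 1 named copy. The labels give no batch behind the replicate numbers. With the replicate number as a block, limma gave 3 members at an unadjusted p under 0.05 (Rplp2, Rpl32l and Rps27l), beside 4.46% of all tested genes, and called 0 (0% of all tested genes). With the block and without control replicate 1 there were 8 such members, beside 15.5% of all tested genes, and 0 of all tested genes were called (0%).

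The paralogues are encoded by genes of their own and resemble a main ribosomal protein in sequence. Rps27l (ENSMUSG00000036781, chr9:66946086-66949516), a paralogue of Rps27 that p53 can induce, was at 163, 48.8 and 52.1 FPKM in the controls and 36.4, 38.9 and 35.2 FPKM with DOPAC. All DOPAC values lay below the lowest control. Its log2 fold change was -1.002 (-2.06 to 0.05), with an unadjusted p of 0.0596 in limma's fit across all genes. Without control replicate 1 it was -0.44 (-0.63 to -0.26), with an unadjusted p of 0.0010, the lowest among the members, and an adjusted p of 0.295. Rpl22l1, whose level rises in other systems when its paralogue Rpl22 is lost, was at 57.8, 15.7 and 18.8 FPKM in the controls and 10.2, 16.2 and 18.2 FPKM with DOPAC. Rpl22, which is needed for the development of αβ T cells, was at 141, 40.4 and 54.3 FPKM and then at 51.3, 43.8 and 42.7 FPKM. Both genes were high in control replicate 1 and overlapped between the groups otherwise.

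A ratio of a paralogue to its main gene within a library removes what both share. The ratio of Rpl7l1 to Rpl7 was 0.101, 0.104 and 0.113 in control replicates 1 to 3 and 0.0938, 0.0954 and 0.0960 in the DOPAC replicates, so all DOPAC values lay below the controls. The log2 difference was -0.16, with a two-sided exact permutation p of 0.1, the smallest that 3 against 3 libraries allow, and 0.3 after adjustment over the 3 ratios tested. It was -0.19 without control replicate 1, with an exact permutation p of 0.2 (adjusted 0.6). The ratio of Rpl22l1 to Rpl22 was 0.408, 0.389 and 0.346 in control replicates 1 to 3 and 0.199, 0.369 and 0.426 in the DOPAC replicates, a log2 difference of -0.27 (exact permutation p = 0.7, adjusted 0.9), and -0.22 without control replicate 1 (exact permutation p = 1, adjusted 1). The ratio of Rps27l to Rps27 ranged from 0.592 to 6.14 in the controls and from 1.02 to 2.64 with DOPAC, a log2 difference of -0.09 with an exact permutation p of 0.9 (adjusted 0.9). It was -0.78 without control replicate 1, with an exact permutation p of 0.6 (adjusted 0.9). The Rps27 row in this ratio is uncertain, since its reads can be split with the copy Rps27rt, which was not tested. None of the 3 ratios was below the 0.05 threshold, which this design cannot reach. Rpl3l and Rpl39l were not analysed here.

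The 5 members annotated as pseudogenes were low, apart from Rpl6l at 45.4 to 83.7 FPKM. Rps3a3 was at 16.97, 4.46 and 8.05 FPKM in the controls and 10.04, 8.31 and 9.02 FPKM with DOPAC. All 5 had their highest value in control replicate 1. Reads of these rows can come from the parent genes, and the values are uncertain to that extent.

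Ribosomal proteins outside the name rule were tested as a list of 6 rows, of which Rpl9-ps6 and Rps10-ps1 are named as pseudogene copies. Of the 6, 5 had negative fold changes with all libraries and 1 without control replicate 1, and 0 were called. Of all tested genes 62.1% were positive with all libraries and 47.3% without that library. Fau, which encodes a small-subunit protein fused to a ubiquitin-like one, was at 385, 171 and 192 FPKM in the controls and 194, 183 and 170 FPKM with DOPAC. It had 1 high library and otherwise overlapping groups. Rack1, a scaffold on the small subunit with 317 codons, was at 273, 232 and 259 FPKM and then at 258, 255 and 256 FPKM.

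The other genes of the pathway were examined from 3 lists. Of 18 further mRNAs with a TOP tract, such as elongation factors, 14 had positive and 4 negative fold changes. Of all tested genes 62.1% were positive. In the list 0 had an unadjusted p under 0.05, beside 4.19% of all tested genes. Leaving out control replicate 1 gave 11 positive and 7 negative, beside 47.3%, with 1 at an unadjusted p under 0.05, beside 14.5%, and 0 called. That gene, named after its values had been seen, was Eif2s3x, at 0.17, where limma gave an adjusted p of 0.336. Eef1a1, the factor that delivers aminoacyl-tRNA, was at 3382, 3643 and 3755 FPKM in the controls and 4558, 4096 and 4055 FPKM with DOPAC, with all DOPAC values above the controls and a log2 fold change of 0.24 (-0.02 to 0.49), or 0.19 without control replicate 1. Hnrnpa1 and Vim followed with 0.22 and 0.35, or 0.18 and 0.19 without that library. The median departure of control replicate 1 was -0.19 for this list, but 16 of the 17 genes of the list with a coding length had over 200 codons, the class in which the members' own median was 0.34. The shortest, Tpt1, with 172 codons, was at 631, 399 and 454 FPKM in the controls and 431, 389 and 394 FPKM with DOPAC, high in control replicate 1.

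Of 16 genes of mTORC1 and LARP1 control, 12 had positive and 4 negative fold changes, beside 62.1% of all tested genes that were positive. By limma 2 had an unadjusted p under 0.05, beside 4.19% of all tested genes, and 0 were called. Rps6kb2, an S6 kinase, was at 25.4, 16.1 and 15.5 FPKM in the controls and 7.83, 11.98 and 12.6 FPKM with DOPAC, with a log2 fold change of -0.75 (-1.35 to -0.15) and an adjusted p of 0.801, or -0.54 without control replicate 1. Sesn2, a leucine sensor that restrains mTORC1, was at 5.05, 5.90 and 5.63 FPKM and then at 6.48, 6.997 and 8.26 FPKM, with a fold change of 0.33 (0.0025 to 0.67), or 0.28 without that library. In neither gene did the groups overlap. Without control replicate 1 the list had 4 positive and 12 negative fold changes, beside 47.3% of all tested genes that were positive. There 8 had an unadjusted p under 0.05, beside 14.5% of all tested genes, and 0 were called. Of these, Rps6kb2, Mtor, Rptor, Sesn3, Larp1 and Mlst8 were lower with DOPAC, and Sesn2 and Eif4ebp1 were higher. The lower ones ran from -0.54 (Rps6kb2) to -0.22 (Mlst8). The median departure of control replicate 1 was -0.51 for this list, and 13 of its 16 genes had over 200 codons. Of 12 chaperones and importers of ribosomal proteins, 9 were positive and 3 negative, beside the same 62.1%. At an unadjusted p under 0.05 there were 0, beside 4.19% of all tested genes. Without control replicate 1 it was 6 and 6, beside 47.3%, with 2 at an unadjusted p under 0.05, beside 14.5%. The importer Ipo7 was at 27.2, 51.6 and 52.3 FPKM in the controls and 54.7, 54.6 and 59.0 FPKM with DOPAC, low in control replicate 1 only. Its fold change was 0.41 (-0.20 to 1.02), or 0.11 without that library.

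Markers of other cells were compared by their summed levels, with 0 called, and their part in the values above was not tested. Of 8 macrophage markers 3 were listed, with sums of 15.4 to 35.2 FPKM in the controls and 4.77 to 13.02 FPKM with DOPAC, mostly from Lyz2, so that the groups did not overlap. Of 5 fibroblast markers 4 were listed, with sums of 37.3 to 43.6 FPKM in the controls and 0.638 to 23.9 FPKM with DOPAC, again without overlap. Of 6 erythroid markers 2 were listed, at 2.72 to 10.4 FPKM and 0.280 to 3.02 FPKM, highest in control replicate 1 and with overlapping groups. Of 7 B cell markers 3 were listed, at 158 to 170 FPKM and 137 to 164 FPKM, which overlapped. No marker listed was at 0 in every library, and the CD4 T cell and neutrophil markers chosen were not analysed here. The members summed to 20452 to 43598 FPKM per library, and the marker sums do not show how much of that came from other cells.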

How the data were processed

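RNA was isolated with TRIzol, and full-length cDNA (SMART-Seq HT) was made into paired-end Nextera XT libraries, which do not mark strand, per the labels' protocols. Per the submitters' processing notes cutadapt 1.9, HISAT2 2.2.1 and mm10 were used. For the estimator of expression, the annotation and the gene filter, nothing is given in the sources used here. The authors deposited FPKM per gene and library, with a log2 fold change and p-values, per the file headers. That log2 fold change equalled the fitted one within 1e-06 in 10887 of 10887 tested genes. The authors' deposited table gave 0 genes with an adjusted p-value under 0.05.

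Here log2(FPKM + 1) was fitted with limma 3.58.1 (R 4.3.3, mean-variance trend) for genes with a mean of at least 1 FPKM (288 were left out, none of them members), with Benjamini-Hochberg adjustment over all tested genes, a threshold of 0.05 and 95% intervals. Fold changes are on that scale and understate changes of low values. The script was tested on simulated data, where recovery of changed genes was required only at a spread smaller than that of these data. That test does not show which changes could be detected at the real spread. Lengths, positions and gene types came from GENCODE M21 (GRCm38, the mm10 assembly), and codons from each gene's principal transcript. Figures used matplotlib 3.10.9 (Python 3.11.15).

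The members, lists and tests were chosen with earlier results of these data known. Genes were named by level (6 highest, 4 lowest), by smallest p (6 per direction), by departure of control replicate 1 (6 largest, 4 smallest) and by a fixed list, with the 3 of smallest p from each other list. Others, such as Rpl36, Rpl13, Rpl7a, Rpl6 and the copies, were named after their values had been seen.

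Both groups carry replicate numbers 1 to 3. Between same-numbered libraries, deviations from the group mean had correlations of 0.34, 0.16 and 0.28 over all tested genes, each above 0.1. Libraries with the same number were therefore taken as pairs in the fits with a replicate block. The main fit and all others were unpaired. Control replicate 2 with DOPAC replicate 3 (0.24) and control replicate 3 with DOPAC replicate 2 (0.19) were above the 0.16 of the second pair, so the data do not establish the pairing. Over the members alone the correlations were 0.02, -0.08 and -0.10. No label gives an animal or a day.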

Additional observations from a re-analysis of the deposited data

How the results depend on the processing

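The count of called members was 0 under every alternative run: pseudocounts of 0.1 and 0.5, no filter, a minimum of 5 FPKM, robust variance, quantile normalization, the replicate block, equal medians, library weights, removal of the length trend, each library left out, and summed copies. The count of called genes was 2 with library weights, 0 to 2 with 1 library left out, and 2 with copies summed and control replicate 1 left out. Members with a positive fold change numbered 10 with all libraries, 47 with library weights, 5 (without control replicate 2) to 54 (without control replicate 1) with 1 library left out, 33 with the replicate block and control replicate 1 left out, and 53 with copies summed and control replicate 1 left out. The median fold change of the members ran from -0.62 to 0.06 with 1 library left out, and was 0.01 with library weights and -0.03 with the block and control replicate 1 left out. Equal medians moved the median of all tested genes from 0.07 to 0.01 and left 7 members positive.

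The replicate block, which pairs same-numbered libraries, called 0 genes, left the median at -0.34 and gave 3 members at an unadjusted p under 0.05 in place of 1, or 8 (Rps3a3, Rpl17, Rplp2, Rpl32l, Rps27l, Rps28, Rps21 and Rpl38) without control replicate 1. With all libraries it ended or added no call, and with control replicate 1 left out it took the count of called genes from 2 to 0.

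Directions that turned belonged to fold changes that were not called. With 1 library left out they ran from -0.0951 to 0.0902 for Rplp0, -0.0300 to 0.170 for Rpl10, -2.18 to 0.291 for Rps27, -0.160 to 0.132 for Rps6, -0.594 to 0.0852 for Rpl11, -1.20 to 0.0137 for Rpl41, -0.579 to 0.00492 for Fau, -0.521 to 0.125 for Rpl36al and -0.0531 to 0.0639 for Rack1. Each of these had its lowest value without control replicate 2 and its highest without control replicate 1. The log2 ratio of Rpl22l1 to Rpl22 ran from -0.488 (without DOPAC replicate 3) to 0.0593 (without DOPAC replicate 1), and that of Rps27l to Rps27 from -0.784 (without control replicate 1) to 0.903 (without control replicate 2). With copies summed and control replicate 1 left out, Rplp0 (0.0902), Rpl11 (0.0852), Rpl41 (0.0137), Fau (0.00492) and Rpl36al (0.125) turned, as did Rps27 (0.0511), Rps6 (0.102), Rpl38 (0.105) and Rpl17 (0.361). With all libraries and summed copies Rpl17 was at 0.0202. With library weights Rplp0 was at 0.0987, Rps27 at 0.602, Rps6 at 0.0754 and Rpl11 at 0.0290. With the length trend removed Rplp0 was at 0.0504, Rps6 at 0.0425 and Rack1 at -0.0879. With the block and control replicate 1 left out Rplp0 was at 0.0765, Rps27 at 0.0467 and Rps6 at 0.00724. Rpsa was at -0.0223 after quantile normalization, and Rack1 at -0.0551 with equal medians. The cause was not tested. FPKM without counts leave the precision of low values unknown.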
